A study of Mus musculus with 4 samples.

Results

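CD11b+ cells that lack CD11c were compared with dendritic cells (DCs) that carry much CD11c and lack CD11b, so the populations are opposite in both surface markers. The pair takes in 2 of the 4 arrays of the series, and its genes are those named by exactly 1 gene's probe sets, which left 20380 of 22690 probe sets and 12393 genes. Neither the arrays nor this full set of genes were chosen by a measured value. The gene lists read below, however, were chosen with earlier results of these data known. Both populations come from C57BL/6J mice and were sorted from the lamina propria of their large intestine, the connective tissue that underlies the epithelium. No treatment, genotype or age is given in the labels. The sample title of the CD11b+ cells is Mf and that of the DCs is CD103. CX3CR1high macrophages and CX3CR1- cells, both carrying CD11c and CD11b, make up the rest of the series and are used here only as points of reference. Every population has 1 array, of Affymetrix's 3' type. How many mice stand behind an array, and whether animals were pooled, the sources used here do not say.

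CD11b, encoded by Itgam, is the alpha chain of an integrin that binds complement fragments and fibrinogen on monocytes, macrophages and granulocytes. CD11c, encoded by Itgax, is the alpha chain of a related integrin and is abundant on DCs. Gut macrophages arise largely from blood monocytes, stay in the tissue, take up dead cells and microbes and secrete IL-10, whereas DCs arise from a precursor that depends on the cytokine FLT3L, carry antigen to the lymph nodes and prime T cells. DCs with CD103 but no CD11b are the branch that depends on the transcription factors IRF8 and BATF3 (cDC1) and is known for presenting antigen of other cells on MHC class I.

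The genes of the gate were read first. Itgam gave a signal of 514 in the CD11b+ cells and 45.9 in the DCs, which lies under the floor of 103, the median of all signals over the 4 arrays. Signals under that floor were set to it, and a ratio with 1 side there is a bound: Itgam was at least 5.0-fold higher in the CD11b+ cells. Itgae, which encodes CD103, stood at 39.2 in the CD11b+ cells and 4962 in the DCs, at least 48.2-fold lower in the CD11b+ cells. Itgax was 3.16-fold lower in the CD11b+ cells, at 1864 against 5893. The CD11b+ cells were gated as lacking CD11c, yet their Itgax signal lay well above the floor. Cx3cr1, the fractalkine receptor that tissue macrophages of the gut carry, was not part of this pair's gate. Its signal was 638 in the CD11b+ cells and 65.2 in the DCs, at least 6.21-fold higher in the CD11b+ cells. Itgam and Itgae thus followed their labels, and Itgax differed in the direction of its label while remaining measurable in the gate that lacks it.

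Values are linear signals on the scale the authors deposited. Over all probe sets the median was 110.2 in the CD11b+ cells and 88.5 in the DCs, and 56.9% and 52.7% of genes reached the floor. The control ratios of 3' over 5' signal, which grow as RNA is less intact, were 2.17 against 0.791 for Gapdh and 3.18 against 1.115 for Actb, so the CD11b+ array was the higher one on both. The part of this difference in the results was not tested. Every population has a lone array, so there is no replicate, no test and no standard error, and the precision of a ratio is limited by the number of arrays. The only spread at hand was that between probe sets of the same gene, with an SD of 0.46 (log2 ratio, over 2007 genes), which contains no difference between mice or sorts. In sorted bulk samples, fewer cells of a type and less RNA per cell cannot be told apart.

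Of 12393 genes, 7483 had a ratio: 6104 were over the floor on both arrays and 1379 on 1 array only. Genes were counted as higher or lower at 4-fold or more. In the CD11b+ cells 449 genes were higher, 6% of those with a ratio, and 147 were lower, 1.96%. Of the higher genes 279 were measured on both arrays and 170 were bounds, and of the lower genes 109 and 38. The higher genes made up 75.3% of all these genes, and 60.9% when the arrays were set to equal medians (353 higher and 227 lower), so the split depended on the scaling. Over genes with a ratio the median log2 difference, CD11b+ cells minus DCs, was 0.07, and -0.22 with equal medians. The 10th and 90th percentiles were -1.02 and 1.48. Most genes, 5429 or 72.6%, differed by less than 2-fold. Just inside the 4-fold limit lay Fbln2, Myo7a and Ninj1 (4.0, 4.01 and 4.01-fold higher in the CD11b+ cells) and just outside it Slc26a2, Pim2 and Eaf2 (3.98, 3.96 and 3.96-fold). On the other side Ccnb2, Esyt3 and Atpif1 were inside (4.0, 4.01 and 4.01-fold higher in the DCs) and Rab43, Immp1l and Mkrn1 outside (3.99, 3.96 and 3.96-fold). Of these, Fbln2, Myo7a, Eaf2, Ccnb2 and Esyt3 are bounds. Genes past the limit had 290 further probe sets, of which 232 differed the same way by at least 2-fold, 58 by less than 2-fold and 0 the opposite way by 2-fold.

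**Figure D1:**
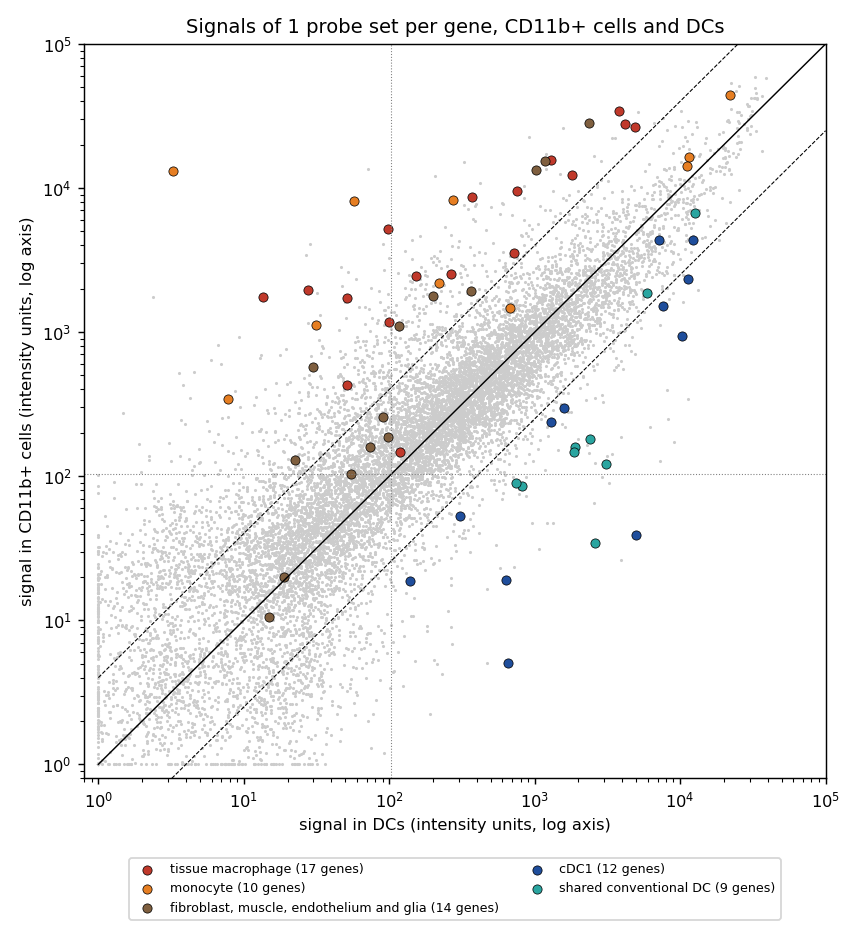
Signal of each gene in the DCs (horizontal, log axis, intensity units) against its signal in the CD11b+ cells (vertical, log axis). Dashed lines mark 4-fold, dotted lines the floor of 103, and coloured points the members of 5 marker lists. Tissue macrophage and monocyte genes lie on or above the diagonal, cDC1 and shared conventional DC genes below it, and most of the fibroblast, muscle, endothelium and glia genes above it.

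The genes furthest above in the CD11b+ cells are of several kinds. Chil3, a secreted chitinase-like protein of monocytes and activated macrophages, had a signal of 13237 in the CD11b+ cells and 3.26 in the DCs, at least 129-fold. Retnla, a small secreted protein induced by IL-4 and IL-13, read 13508 against 71.9, at least 131-fold. The transglutaminase subunit F13a1 read 8148 against 57.4, at least 79.2-fold. Among genes over the floor on both arrays, the chemokine Ccl9 came first at 12172 against 207, a ratio of 58.8-fold. Thbs1, the matrix glycoprotein thrombospondin, followed at 15215 against 327, 46.5-fold. The leukocyte protease inhibitor Slpi (4351 against 143, 30.4-fold) and fibronectin, Fn1 (8235 against 274, 30.1-fold), lay close together. Then came Tlr2, the receptor for bacterial lipoproteins, at 4658 against 163, 28.5-fold, and the monocyte attractant Ccl7 at 3673 against 129, 28.4-fold. Clec4e, which encodes the mycobacterial glycolipid receptor Mincle, read 10918 against 419, 26.1-fold. The transcription factor Cebpb, a driver of inflammatory myeloid genes, read 22615 against 908, 24.9-fold. Igfbp4, which binds insulin-like growth factors, and Pf4, the chemokine platelet factor 4, were both 23.5-fold higher. The matrix protein Fbln1 (22.8-fold) and the membrane protein Ms4a4d (22.3-fold) close the 12 largest measured ratios.

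The list of large bounds goes on with surface receptors, calgranulins, an enzyme and an adaptor. Mrc1, which encodes the mannose receptor, read 5178 against 97.8, at least 50.3-fold. Cd93 was at least 39.7-fold and the scavenger receptor Stab1 at least 26.4-fold higher. S100a8 and S100a9, which together form the antimicrobial calprotectin, read 4058 against 28.6 and 3416 against 26.7, at least 39.4-fold and 33.2-fold. Acod1, the mitochondrial enzyme that makes itaconate, read 3289 against 99.6, at least 32.0-fold. Sh3bp5, an adaptor that binds a tyrosine kinase of B cells, was at least 27.4-fold higher. All of them were under the floor on the DC array, which makes their ratios bounds.

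Among the genes furthest above in the DCs were a pair of serpins, a pair of chemokines and 3 killer-lectin receptors. Serpinb6b, an intracellular protease inhibitor, had a signal of 7224 in the DCs and 127 in the CD11b+ cells, 56.7-fold. Serpinb9, which inhibits granzyme B, read 11285 against 346, 32.6-fold. The chemokines Ccl17 (9138 against 174, 52.6-fold) and Ccl22 (6194 against 220, 28.1-fold) share the receptor CCR4 on T cells. Ccr7, the receptor that guides DCs to lymph nodes, read 8091 against 397, 20.4-fold. Plet1, a surface protein known from gut DCs and placenta, was 33.0-fold higher in the DCs. Klrk1, which encodes NKG2D, Klrd1, which encodes CD94, and Klrb1b belong to the killer-lectin family of natural killer cells. They read 3417 against 143, 3933 against 187 and 2591 against 123, ratios of 23.9, 21.1 and 21.1-fold. H2-Oa, a chain of the inhibitor of MHC class II peptide loading, was 25.8-fold higher. Pkib, an inhibitor of protein kinase A, and Qpct, which cyclises the ends of peptides, were 22.7-fold and 16.1-fold higher.

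Bounds on the DC side start with Itgae and go on with Scin, an actin-severing protein, at 3938 against 26, at least 38.3-fold. H2-DMb2, a chain of the class II peptide loader, read 3237 against 90.3, at least 31.5-fold. The cytokine receptor gene Flt3, on which DC development depends, read 2579 against 34.4, at least 25.1-fold. Hepacam2, Rtl8c and Bcl2l14 were at least 28.4, 24.8 and 13.1-fold higher, and the orphan receptor Gpr33 at least 11.8-fold. Il12b, the p40 chain of IL-12 and IL-23, read 1066 against 31.4, at least 10.4-fold. Cldn1, a tight junction protein, was at least 9.34-fold higher. On the CD11b+ array all 10 of these genes, Itgae included, were under the floor.

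**Figure D2:**
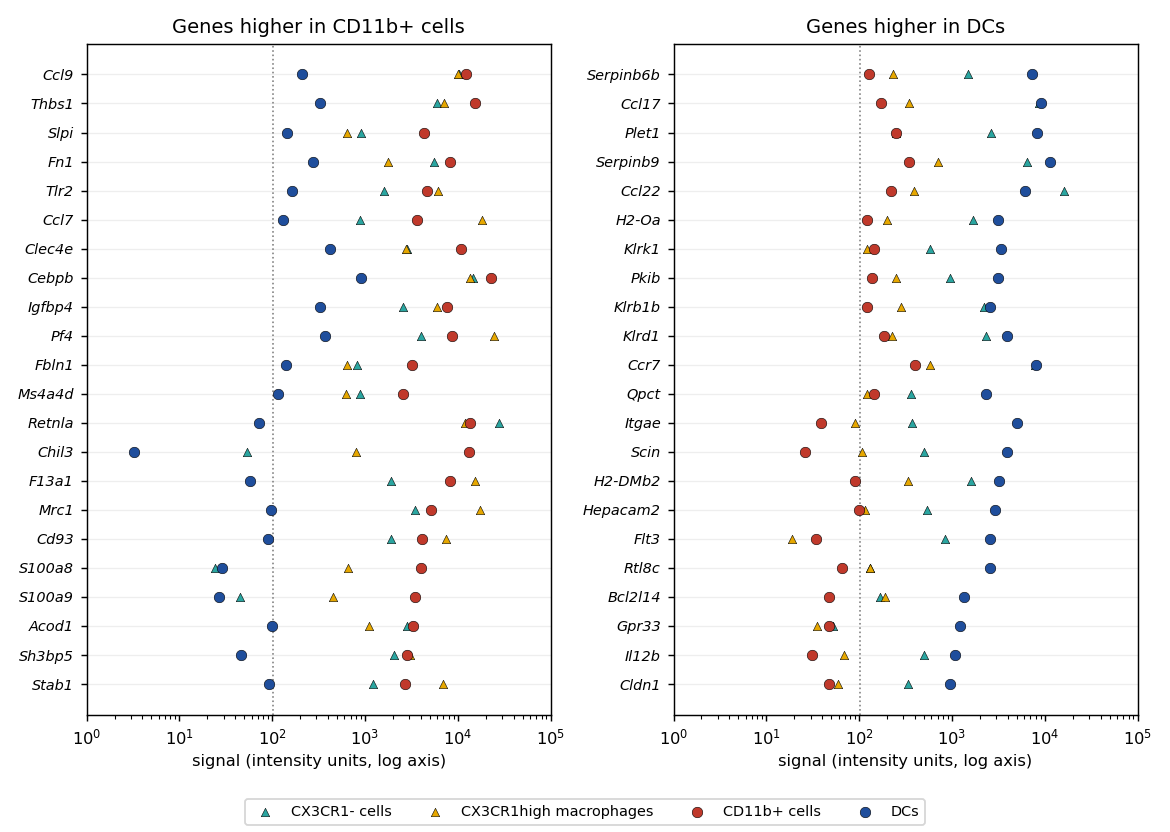
Signals (log axis, intensity units) of the 22 genes named furthest above in the CD11b+ cells (left) and the 22 furthest above in the DCs (right) on all 4 arrays, with the floor of 103 as a dotted line. In the left panel the DC points lie furthest left for every gene except S100a8, where the CX3CR1- cells read lower (24.1 against 28.6), and in the right panel the CX3CR1- cells often lie between the CD11b+ cells and the DCs.

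The promoters of 5 of these genes are shown because they hold a match to one of 4 motifs of factors active in myeloid cells. Each sequence is the 250 bases before the RefSeq start of the gene on build GRCm38.p6, written 5' to 3' on the gene's own strand, with the matches in capitals. Ccl9 lies on the minus strand (chr11:83578637-83578886) and holds an AP-1 match that begins 53 bases and an NF-kB match that begins 35 bases before the start. Clec4e (chr6:123289872-123290121, minus strand) and S100a9 (chr3:90695722-90695971, minus strand) hold a C/EBP match, 66 and 236 bases before the start. From the DC side, Serpinb9 (chr13:33004291-33004540, plus strand) holds an interferon-response match (ISRE) at 46 bases and Klrk1 (chr6:129623865-129624114, minus strand) a C/EBP match at 175 bases.
Ccl9: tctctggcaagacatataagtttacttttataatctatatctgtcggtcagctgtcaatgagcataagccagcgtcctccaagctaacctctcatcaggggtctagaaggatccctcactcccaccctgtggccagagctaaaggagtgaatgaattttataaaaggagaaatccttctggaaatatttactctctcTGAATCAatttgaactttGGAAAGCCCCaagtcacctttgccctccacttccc
Clec4e: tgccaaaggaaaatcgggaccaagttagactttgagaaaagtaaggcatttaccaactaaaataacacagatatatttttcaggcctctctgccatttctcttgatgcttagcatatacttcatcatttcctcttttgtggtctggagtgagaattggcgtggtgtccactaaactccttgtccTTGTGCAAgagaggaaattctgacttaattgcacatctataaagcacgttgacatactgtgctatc
S100a9: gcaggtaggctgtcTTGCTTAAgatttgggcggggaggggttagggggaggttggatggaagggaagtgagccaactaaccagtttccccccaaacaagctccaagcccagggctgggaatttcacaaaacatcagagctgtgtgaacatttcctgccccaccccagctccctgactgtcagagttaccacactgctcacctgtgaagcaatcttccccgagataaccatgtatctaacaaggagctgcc
Serpinb9: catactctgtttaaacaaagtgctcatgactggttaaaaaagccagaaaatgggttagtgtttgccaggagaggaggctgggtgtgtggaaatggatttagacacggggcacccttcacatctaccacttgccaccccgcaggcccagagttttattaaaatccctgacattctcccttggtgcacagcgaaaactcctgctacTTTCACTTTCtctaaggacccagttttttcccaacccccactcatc
Klrk1: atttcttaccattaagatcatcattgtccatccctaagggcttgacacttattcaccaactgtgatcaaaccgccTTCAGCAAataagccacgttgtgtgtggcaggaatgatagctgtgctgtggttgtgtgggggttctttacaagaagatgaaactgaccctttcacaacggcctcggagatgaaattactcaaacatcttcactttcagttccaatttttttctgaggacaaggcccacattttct

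The motifs were searched on both strands, as TTGCNNAA for C/EBP, GGG and TTTCC with 2 free bases between them for NF-kB, TGANTCA for AP-1 and GAAA repeated after 2 free bases for ISRE, and none of the printed matches overlap. They were chosen after the values had been seen, and a match is a description of letters and not a bound site. Among 6110 genes with a ratio and a promoter in the table, C/EBP letters occurred in 7.55%, against 10.7% of 347 genes higher in the CD11b+ cells and 6.67% of 120 genes lower. NF-kB letters occurred in 1.46% of all, 3.17% of the higher and 0.833% of the lower genes. AP-1 letters occurred in 4.50%, 9.22% and 7.50%, and ISRE letters in 2.93%, 4.61% and 2.5%. The lower group's shares rest on 8, 1, 9 and 3 promoters in the same order.

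Lists of genes were then read at a limit of 2-fold, which 17% of all genes with a ratio passed as higher in the CD11b+ cells and 10.4% as lower. Counts are over members with a ratio, and the median log2 difference over all genes was 0.07. Of 17 tissue macrophage genes 16 were higher and 0 lower, with a median of 3.52. The hemoglobin scavenger receptor Cd163 read 1752 against 13.6, at least 17.0-fold, and the high-affinity IgG receptor Fcgr1 2462 against 152, 16.2-fold. Csf1r, the receptor for the growth factor of macrophages, read 27758 against 4191, 6.62-fold. Cd14, which hands lipopolysaccharide to TLR4, read 34228 against 3823, 8.95-fold. Lyve1, the folate receptor Folr2 and the carbonyl reductase Cbr2, known from macrophages that reside near vessels, were at least 16.8, 11.5 and 19.0-fold higher. Mertk, a receptor for dying cells, was at least 4.18-fold higher and Adgre1, which encodes F4/80, 4.90-fold.

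Monocyte genes gave a median of 2.53, with 8 of 10 higher and 0 lower. With equal medians 6 of 10 were higher (median 2.33), and with quantile normalization 7 of 10 (median 2.44). Beside Chil3, F13a1 and Fn1, the matrix proteoglycan Vcan was at least 10.9-fold higher in the CD11b+ cells and Ccr2, the receptor by which monocytes leave the marrow, 2.19-fold (1482 against 676). Lyz2, lysozyme, read 44238 against 21900, 2.02-fold. Ccr2 and Lyz2 thus lay close to the 2-fold limit. Neutrophil genes gave a median of 2.90, with 7 of 9 higher and 0 lower. Apart from S100a8 and S100a9, the haptoglobin gene Hp read 1753 against 2.39, at least 17.0-fold, Csf3r, the receptor for G-CSF, at least 11.2-fold and Mmp9 at least 7.46-fold. Summed over the neutrophil list the signal was 11963 in the CD11b+ cells and 315 in the DCs. The neutrophil chemokine receptor Cxcr2 was under the floor on both arrays. CD11b is carried by monocytes and neutrophils too, and the part of such cells in the results was not tested.

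Genes of the cDC1 branch ran the other way, with 0 of 12 higher and 10 lower in the CD11b+ cells and a median of -2.37. The chemokine receptor Xcr1, by which cDC1 meet cytotoxic T cells, read 658 in the DCs and 5.02 in the CD11b+ cells, at least 6.4-fold. The factors that define the branch, Irf8 and Batf3, read 11382 against 2322 and 1285 against 238, 4.90 and 5.41-fold higher in the DCs. Cadm1, an adhesion molecule, was 5.35-fold higher and Tlr3, the sensor of double-stranded RNA, at least 3.0-fold. Ppt1, a lysosomal thioesterase, read 10267 against 940, 10.9-fold. Rab7b at 1.64-fold was among the pair that missed the limit.

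Of 9 genes shared by conventional DCs 8 were lower in the CD11b+ cells, with a median of -3.58. The DC factor Zbtb46 was at least 7.91-fold higher in the DCs, the peptidase Dpp4 12.7-fold, the stem cell factor receptor Kit 12-fold and the septin Septin6 13.1-fold. Id2, a regulator on which several lymphoid and DC lineages depend, was 1.87-fold higher in the DCs and did not pass. Of 9 genes of mature, migrating DCs 4 were lower in the CD11b+ cells, with a median of -0.90. These were Ccl17, Ccl22, Ccr7 and the actin bundler Fscn1, which read 4159 against 819, 5.08-fold. Another probe set of Fscn1 read 441 in the DCs and 287 in the CD11b+ cells, within 2-fold. Without shared probe set types 3 of 9 genes of this list were lower, with a median of -0.69. Relb, an NF-kB subunit of mature DCs, read 1569 in the CD11b+ cells and 1556 in the DCs, and Cd83, a maturation marker, 14954 and 20826. The list was therefore split between genes far apart and genes within 2-fold.

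**Figure D3:**
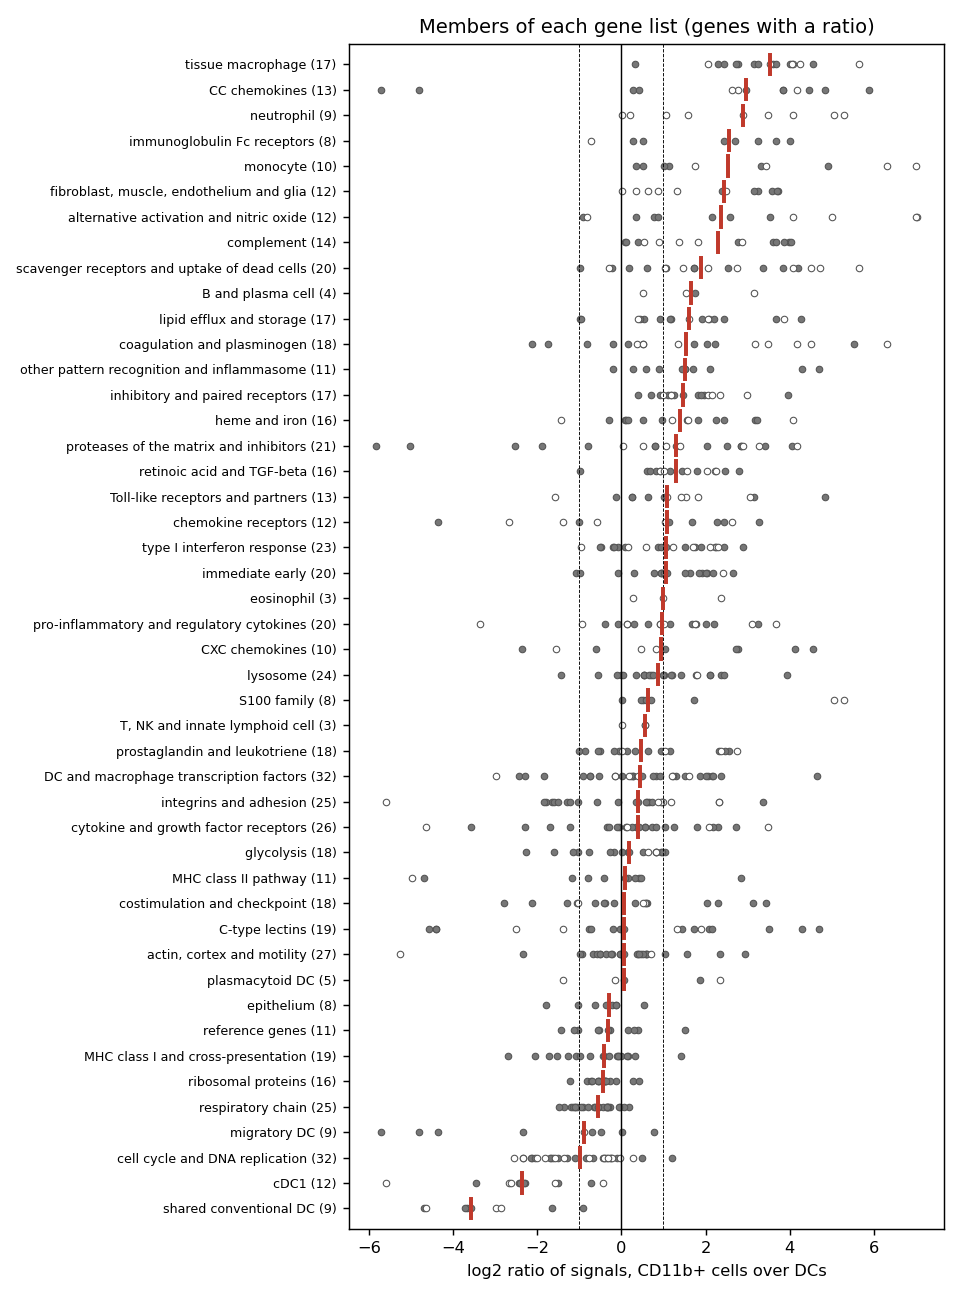
Log2 ratio of signals, CD11b+ cells over DCs, of each member with a ratio in each gene list (filled points measured on both arrays, open points bounds), with the list's median as a red bar and 2-fold as dashed lines; the number after a list's name is its members with a ratio. Tissue macrophage genes have a median of 3.52 and shared conventional DC genes one of -3.58, the ends of the order on this scale and floor only, and CC chemokines reach from -5.72 to 5.88.

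Chemokines were the widest-spread function. Of 13 CC chemokines 9 were higher in the CD11b+ cells and 2, Ccl17 and Ccl22, were lower, with a median of 2.96. The monocyte attractant Ccl2 read 5338 against 242, 22.1-fold, Ccl6 17173 against 1190, 14.4-fold, and Ccl8 2326 against 163, 14.3-fold. The eosinophil attractants Ccl11 and Ccl24 were at least 17.9-fold and 6.20-fold higher in the CD11b+ cells. Ccl4 (2189 against 1796) and Ccl5 (1299 against 967) lay within 2-fold. Of 10 CXC chemokines 5 were higher and 2 lower, with a median of 0.93. The neutrophil attractants Cxcl1 and Cxcl2 were 6.87-fold and 6.58-fold higher in the CD11b+ cells and Cxcl12, the ligand of CXCR4, 17.6-fold. Cxcl9 and Cxcl11, induced by interferon-gamma and read by CXCR3 on T cells, ran the other way. Cxcl9 read 8052 in the DCs and 1559 in the CD11b+ cells, 5.16-fold, and Cxcl11 was at least 2.94-fold higher in the DCs, while the related Cxcl10 was 2.07-fold higher in the CD11b+ cells.

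Among 12 chemokine receptors 7 were higher in the CD11b+ cells and 4 lower, with a median of 1.09. With equal medians, and with the mean over probe sets, 5 were higher and 4 lower, at medians of 0.88 and 0.51. Ccr1, a receptor for several inflammatory chemokines, was 5.40-fold higher and the scavenging receptor Ackr3 9.64-fold. The receptors on the DC side were Ccr7, Xcr1, the gut-homing receptor Ccr9 and Cxcr3, with Ccr9 at least 2.61-fold and Cxcr3 2.0-fold higher in the DCs. Cxcr4, the receptor of CXCL12, was 3.20-fold and the mucosal homing receptor Ccr10 at least 2.07-fold higher in the CD11b+ cells.

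**Figure D4:**
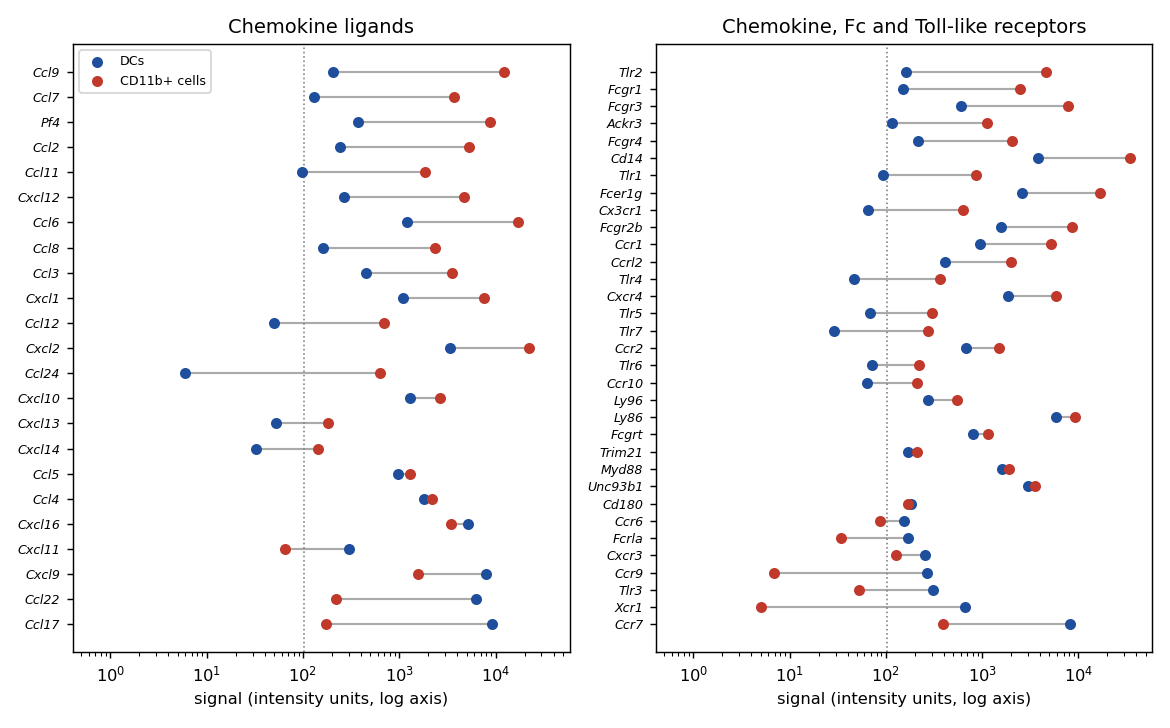
Signals (log axis, intensity units) of chemokine genes (left) and of chemokine, Fc and Toll-like receptor genes with their partners (right) in the CD11b+ cells (red) and the DCs (blue), joined by a line per gene, ordered by log2 ratio, with the floor of 103 dotted. Ccl9 and Tlr2 head the panels, and Ccl17 and Ccr7, the furthest above in the DCs, close them.

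Receptors for microbes came next. Of 13 Toll-like receptor genes and partners 8 were higher (6 with quantile normalization or equal medians) and 1 lower, with a median of 1.09. Besides Tlr2, its partner Tlr1 was at least 8.31-fold higher (855 against 92.5) and Tlr6 at least 2.13-fold. The lipopolysaccharide receptor Tlr4 was at least 3.56-fold, the flagellin receptor Tlr5 at least 2.91-fold and the RNA receptor Tlr7 at least 2.67-fold higher. Tlr3 alone of this list was lower. Tlr8 and the DNA receptor Tlr9 were under the floor on both arrays. Of 11 other pattern recognition and inflammasome genes 7 were higher and 0 lower, with a median of 1.51 (3 of 7 without shared probe set types), among them Nlrp3 (4.29-fold) and the C-type lectin Clec4d (7782 against 397, 19.6-fold).

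Opsonin receptors followed. Of 8 Fc receptor genes 5 were higher and 0 lower in the CD11b+ cells, with a median of 2.57. The low-affinity IgG receptors Fcgr3 and Fcgr4 were 12.8-fold and 9.50-fold higher, the inhibitory Fcgr2b 5.44-fold and the shared signalling chain Fcer1g 6.47-fold. Of 14 complement genes 9 were higher and 0 lower, with a median of 2.29. The C1q chains C1qa, C1qb and C1qc, which macrophages make, were 6.83, 12.2 and 12.7-fold higher. The protease C1s1 and its inhibitor Serping1, which fibroblasts also make, were 15.9-fold and 14.7-fold higher and the partner protease C1ra at least 7.31-fold. The anaphylatoxin receptor C3ar1 was 16.3-fold higher and C5ar1 at least 3.52-fold.

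Lectins and paired receptors differed in kind between the populations. Of 19 C-type lectin genes 9 were higher and 5 lower, with a median of 0.06, near that of all genes and negative with quantile normalization or equal medians. Clec4a2, Clec10a and Mgl2 were 11.4, 4.26 and 4.42-fold higher in the CD11b+ cells. On the DC side stood the 3 killer lectins given above, Ly75, which encodes the uptake receptor DEC-205 (at least 5.65-fold), and the Ly49 gene Klra17 (at least 2.62-fold). Ncr1 and Nkg7, genes of natural killer cells, were under the floor on both arrays, as were the T cell receptor complex genes Cd3d, Cd3e and Cd3g. Of 17 inhibitory and paired receptor genes 13 were higher in the CD11b+ cells and 0 lower, with a median of 1.47. Cd300lf, a receptor for lipids of dying cells, was 15.7-fold higher, Pirb, which binds MHC class I, 3.51-fold, and Trem3 at least 4.46-fold.

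Cytokine genes were higher in the CD11b+ cells in 10 of 20 cases and lower in 1, Il12b, with a median of 0.97. Tnf was at least 12.7-fold higher (1305 against 94.2), Il10, which restrains gut inflammation, 9.54-fold (2548 against 267) and Il6 3.17-fold (6067 against 1911). The IL-1 receptor antagonist Il1rn was 4.61-fold and Il1a 3.40-fold higher, while Il1b read 32352 against 26343, within 2-fold. Csf1, the growth factor of macrophages, was at least 8.61-fold higher. Il23a, the partner of the p40 chain in IL-23, was at least 1.91-fold higher in the DCs and did not pass. Among 26 cytokine and growth factor receptors 8 were higher and 5 lower, with a median of 0.38. Apart from Csf1r and Flt3, Csf2rb, the shared chain of the GM-CSF receptor, read 8384 in the DCs and 1706 in the CD11b+ cells, 4.91-fold. The IL-1 receptors split, with the signalling Il1r1 at least 4.26-fold higher in the CD11b+ cells and the decoy Il1r2 3.25-fold higher in the DCs. Il6ra, Tnfrsf1b and Tgfbr1 were 4.93, 4.54 and 3.45-fold higher in the CD11b+ cells.

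Several accessory genes of antigen presentation differed by 2-fold or more, and the chosen probe sets of the classical class II chains by less. H2-Aa read 24996 in the CD11b+ cells and 33046 in the DCs, H2-Ab1 38204 and 28686, H2-Eb1 36878 and 29556, and the invariant chain Cd74 34502 and 31210, all within 2-fold. These signals lie near the top of the scale, where the highest signal was 66335 in the CD11b+ cells and 38968 in the DCs, so closeness here does not show equal expression. Further probe sets also disagreed: H2-Aa had a log2 difference of -0.40 on the chosen set and 0.49 on another, and H2-Ab1 0.41 on the chosen set and -0.74 and -1.08 on others. The direction of both chains is therefore not settled. Of 11 class II pathway genes 1 was higher in the CD11b+ cells and 3 lower, with a median of 0.09, whose sign was negative under each of the 8 alternatives. The genes lower were H2-Oa, H2-DMb2 and H2-DMa, which act on peptide loading, and H2-DMa read 5273 against 11810, 2.24-fold higher in the DCs. The gene higher was Lgmn, a protease of the lysosome, at 9500 against 1330, 7.14-fold. Of 19 genes of the class I pathway 6 were lower and 1 higher, with a median of -0.40. Psmb9 and Psmb8, subunits of the immunoproteasome, were 6.52-fold (7308 against 1121) and 4.15-fold higher in the DCs and the activator Psme1 3.32-fold. The peptide transporters Tap1 and Tap2 were 2.40-fold and 2.12-fold and the loading chaperone Pdia3 2.88-fold higher in the DCs. Cybb, the catalytic chain of the phagocyte oxidase, was 2.68-fold higher in the CD11b+ cells.

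Costimulatory genes lay around the median of all genes, with 4 of 18 higher, 5 lower and a median of 0.07 that was negative with equal medians. Cd86 read 4282 in the CD11b+ cells and 5605 in the DCs and Cd40 1810 and 2426, both within 2-fold. Pdcd1lg2, a ligand of PD-1, was 6.91-fold and the checkpoint receptor Havcr2 4.34-fold higher in the DCs. Vsir, which encodes the checkpoint ligand VISTA, was 8.80-fold and Tnfsf9, the ligand of 4-1BB, 4.09-fold higher in the CD11b+ cells. Sirpa, which marks macrophages and the other DC branch, read 3873 against 359, 10.8-fold, and its ligand Cd47 was 2.07-fold higher in the DCs.

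Among 32 transcription factors of DCs and macrophages 12 were higher in the CD11b+ cells and 4 lower, with a median of 0.44. The C/EBP genes Cebpa and Cebpd were 4.45-fold and 5.20-fold higher beside Cebpb. Klf2, Egr1 and Egr2 were 4.19, 4.05 and 4.53-fold higher, and Nr1h3, the oxysterol receptor LXR-alpha, at least 3.06-fold. Spic, which iron-recycling macrophages need, read 239 against 29.2, at least 2.32-fold. The factors lower were Irf8, Batf3, Zbtb46 and Etv6, the last at 3.58-fold. Hhex, a homeobox factor outside the lists, read 2284 in the DCs and 164 in the CD11b+ cells, 13.9-fold, and was named after its values were seen.

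Lists of uptake, degradation, lipid and iron genes followed. Of 20 scavenger and dead-cell receptors 15 were higher and 0 lower, with a median of 1.89. The scavenger receptor Msr1 was 14.3-fold higher, the large lipoprotein receptor Lrp1 18.2-fold (2500 against 137), the dead-cell receptor Axl 5.80-fold and its ligand Gas6 at least 22.7-fold. Of 24 lysosomal genes 11 were higher (8 with equal medians), 12 lay within 2-fold and 1, Gusb, was lower, with a median of 0.87. Ctsd, an aspartyl protease, read 5918 against 389, 15.2-fold, while the cysteine proteases Ctsb and Ctsl were 4.30-fold and 5.16-fold higher and the membrane protein Lamp1 5.44-fold. Of 17 lipid genes 11 were higher and 0 lower, with a median of 1.61. The cholesterol exporter Abca1 read 7554 against 389, 19.4-fold, the lipoprotein lipase Lpl was 12.7-fold, Apoe 5.41-fold and the lipid sensor Trem2 at least 4.16-fold higher. Of 16 heme and iron genes 9 were higher and 1 lower, with a median of 1.39. Hmox1, which breaks heme down, was 8.97-fold, the metal transporter Slc11a1 9.30-fold and the iron exporter Slc40a1 at least 2.98-fold higher. Hamp, the hormone that blocks iron export, was at least 2.69-fold higher in the DCs.

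Of 18 genes of coagulation and plasminogen 10 were higher in the CD11b+ cells and 2 lower, with a median of 1.53. The clotting factors F5 and F10 were at least 11.2-fold and 9.03-fold higher, the urokinase receptor Plaur 4.09-fold and thrombomodulin, Thbd, 4.65-fold. The genes lower were Procr, the receptor of protein C (3.35-fold higher in the DCs), and Vwf, which tethers platelets (4.39-fold). Of 21 genes of matrix proteases and of protease inhibitors 12 were higher and 4 lower, with a median of 1.31. The lowest member, at -5.83, was Serpinb6b, an intracellular inhibitor. Adamdec1, a protease known from gut macrophages and fibroblasts, read 26185 against 1574, 16.6-fold. The collagenase activator Mmp14 was 10.6-fold and Mmp2 5.66-fold higher, while Mmp12, the elastase of macrophages, was 5.75-fold and Adam19 3.71-fold higher in the DCs. Among serpins 6 of 12 were higher and 4 lower, so that Serpinb2 (at least 18.1-fold higher in the CD11b+ cells) and Serpinb6b (56.7-fold higher in the DCs) lay at opposite ends of 1 family.

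Of 12 genes of alternative activation and nitric oxide 7 were higher and 0 lower, with a median of 2.36. Apart from Retnla, Chil3 and Acod1, the transglutaminase Tgm2 was 11.5-fold and the arginase Arg2 5.94-fold higher. Arg1 and Nos2, which stand for opposite states of cultured macrophages, were under the floor on both arrays. Of 18 prostaglandin and leukotriene genes 7 were higher and 1 lower, with a median of 0.47. The inducible cyclooxygenase Ptgs2 was 5.89-fold, the phospholipase Pla2g4a at least 6.67-fold and Hpgd, which breaks prostaglandins down, 5.55-fold higher. Of 16 retinoic acid and TGF-beta genes 10 were higher and 0 lower, with a median of 1.30. Aldh1a2, the retinoic acid enzyme known from gut DCs with CD103, read 348 in the DCs and 175 in the CD11b+ cells, 1.99-fold and just short of the limit, while Aldh1a1 was at least 4.66-fold and Rdh10 5.50-fold higher in the CD11b+ cells.

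Of 23 type I interferon response genes 12 were higher in the CD11b+ cells and 0 lower, with a median of 1.07. Oas1a, which senses double-stranded RNA, was 7.4-fold, the antiviral Rsad2 4.68-fold and the factor Irf7 2.87-fold higher. Guanylate-binding and Iigp GTPases, which act on microbes inside cells, were higher in 9 of 11 cases and lower in 0, with a median of 1.36 and Iigp1 at 6.04-fold. Of 20 immediate early genes 12 were higher and 1 lower, with a median of 1.06, led by Ier3 (6.25-fold), Fosb (4.12-fold) and Jun (3.79-fold), and Nr4a2 was 2.10-fold higher in the DCs. Immediate early genes respond within minutes to handling as well as to signals, and the part of the sorting procedure was not tested. Ms4a genes, which encode membrane proteins of myeloid cells, were higher in 7 of 8 cases and lower in 0, with a median of 2.17.

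In the cell cycle, proteasome and respiratory chain lists more genes passed as lower in the CD11b+ cells than as higher, and many lay within 2-fold. Of 32 cell cycle and DNA replication genes 16 were lower in the CD11b+ cells and 1 higher, with a median of -0.98. The DNA topoisomerase Top2a was 4.38-fold, the helicase subunit Mcm7 4.46-fold, the nucleotide reductase subunit Rrm2 at least 5.90-fold and the mitotic Birc5 at least 5.10-fold higher in the DCs. The gene higher was Cdkn1a, the inhibitor p21, at 13198 against 5747, 2.30-fold. Of 45 proteasome genes 16 were lower and 1 higher, with a median of -0.83, so the difference was not limited to the immunoproteasome: Psmd7 was 2.88-fold and Psma7 2.64-fold higher in the DCs. Of 25 respiratory chain genes 7 were lower and 0 higher, with a median of -0.55, and Cycs, cytochrome c, read 12211 in the DCs and 5712 in the CD11b+ cells, 2.14-fold. Cox5b, another of the 7, had a log2 difference of -1.11 on its chosen probe set and 0.10 as the mean over its probe sets. With equal medians the counts lower were 17 of 32, 28 of 45 and 10 of 25, and with quantile normalization 16, 14 and 6. With the mean over probe sets they were 14 of 29, 9 of 43 and 7 of 25. Equal medians also moved the whole array, with 227 rather than 147 genes at least 4-fold lower. The share of all genes at least 2-fold lower, 10.4%, was counted in the main setting only. Ribosomal protein genes had a median of -0.43, with 0 of 16 higher and 1 lower, and reference genes a median of -0.32. Glycolysis genes did not share a direction, with 1 of 18 higher, 4 lower and a median of 0.18 that was negative with equal medians.

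Adhesion genes were also split. Of 25 integrin and adhesion genes 4 were higher and 9 lower in the CD11b+ cells, with a median of 0.39. Besides Itgae, the gut-homing partner chain Itgb7 was 3.02-fold, Itga4 2.45-fold, the tetraspanins Cd9 and Cd81 2.35-fold and 2.86-fold, and Alcam 3.6-fold higher in the DCs. Vcam1, a ligand for lymphocytes, was 5.02-fold higher in the CD11b+ cells. Of 27 actin and motility genes 4 were higher and 2 lower, with a median of 0.05 that was negative with quantile normalization or equal medians. Capg, which caps actin filaments, and Marcksl1 were 7.65-fold and 5.04-fold higher in the CD11b+ cells, whereas Scin was the furthest above in the DCs.

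Fibroblast genes and part of the muscle genes were higher on the CD11b+ array. Of 12 genes of fibroblasts, muscle, endothelium and glia with a ratio 8 were higher in the CD11b+ cells and 0 lower, with a median of 2.44. The list's summed signal was 63259 (CD11b+ cells), 5636 (DCs), 23424 (CX3CR1- cells) and 17735 (CX3CR1high macrophages). Collagen genes were higher in 16 of 19 cases and lower in 0, with a median of 2.86. Col3a1 read 28325 against 2360, 12-fold, Col1a2 13382 against 1015, 13.2-fold, and the proteoglycan Dcn 15299 against 1173, 13-fold. The endothelial members Pecam1, Cdh5 and Kdr did not pass, at bounds of 1.82, 1.56 and 1.01-fold, and the glial genes S100b and Gfap were under the floor on both arrays. The matrix genes Fn1, Fbln1, Thbs1, Igfbp4, Cxcl12 and C1s1 named above are also made by fibroblasts, and the part of such cells in their values was not tested.

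Plasma cell genes moved the same way. Jchain, the joining chain of IgA, read 34144 in the CD11b+ cells and 10118 in the DCs, 3.37-fold, and 10 of 14 immunoglobulin chain genes were higher and 0 lower, with a median of 1.26. With equal medians 6 of 13 chain genes were higher (median 0.95), and with quantile normalization 7 of 13 (median 1.26). Of the B cell genes, Cd79b read 300 against 55.1, at least 2.92-fold higher in the CD11b+ cells, Cd79a 147 against 27.8, at least 1.42-fold, and Ms4a1 was under the floor on both arrays. Hdc, which makes histamine, read 2116 against 163, 13-fold, while the mast cell protease genes, Cpa3 included, were under the floor on both. Among eosinophil genes, Alox15 read 530 against 4.55, at least 5.15-fold higher in the CD11b+ cells, Siglecf 203 against 74, at least 1.98-fold, and Prg2 124 against 16, at least 1.2-fold, while Epx, Ccr3 and Il5ra were under the floor on both. Of 8 epithelial genes 0 were higher and 2 lower, with a median of -0.29, Epcam and Cdh1 being 2.05-fold and 3.46-fold higher in the DCs, and Vil1, Krt20 and Fabp2 were under the floor on both. Of 5 plasmacytoid DC genes 2 were higher and 1 lower, with a median of 0.05 that was negative with equal medians. The part of any of these cells in the results was not tested.

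The arrays of the CX3CR1high macrophages and the CX3CR1- cells place these differences among all 4 populations. They share no group with the pair, but the comparisons with them use its arrays, so their values are given as a description only. Among the 449 genes higher in the CD11b+ cells, the highest of the 4 signals was that of the CD11b+ cells for 246, of the CX3CR1high macrophages for 171 and of the CX3CR1- cells for 32. Ccl9 read 12172, 10149 and 10384 in the CD11b+ cells, the CX3CR1high macrophages and the CX3CR1- cells. Ccl7, by contrast, read 3673, 17991 and 874, and Pf4 8661, 24576 and 3963, so these were highest in the macrophages. Retnla was highest in the CX3CR1- cells, at 27748 against 13508 in the CD11b+ cells. At least 4-fold above all 3 other arrays were 16 genes, namely Hp, Chil3, S100a9, S100a8, Mfap4, Rarres2, Mgp, Slpi, Prelp, Ccl11, Tcf21, F10, Clec3b, Igfbp3, Enpp3 and Vcan. They hold members of the monocyte and neutrophil lists (Hp, Chil3, S100a8, S100a9 and Vcan) and genes known from stromal cells (Mgp, Prelp, Mfap4, Clec3b and Tcf21). Chil3 read 13237, 798 and 53.3 and S100a8 4058, 651 and 24.1 in the same order.

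Of the 147 genes lower in the CD11b+ cells, the DC array held the highest signal of 140 and the array of the CX3CR1- cells that of 7. The CX3CR1high macrophages lay within 2-fold of the CD11b+ cells for 126 of them and the CX3CR1- cells for 80. Among the leading genes high in the CX3CR1- cells too were Ccl22 (15935 in the CX3CR1- cells, 6194 in the DCs and 220 in the CD11b+ cells), Ccl17 (8560, 9138 and 174) and Ccr7 (7927, 8091 and 397). At least 4-fold above all 3 other arrays in the DCs were 39 genes, with Itgae, Scin, Gpr33, Rtl8c, Hhex, Ppt1, Xcr1, Klrk1, Psmb9 and Cxcl9 among them. Xcr1 read 658 in the DCs, against 42.1 (CX3CR1- cells) and 28.7 (CX3CR1high macrophages), and Psmb9 7308, 1322 and 1282. Xcr1, Klrk1 and Psmb9 were not within 4-fold of the DCs on any other array.

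**Figure D5:**
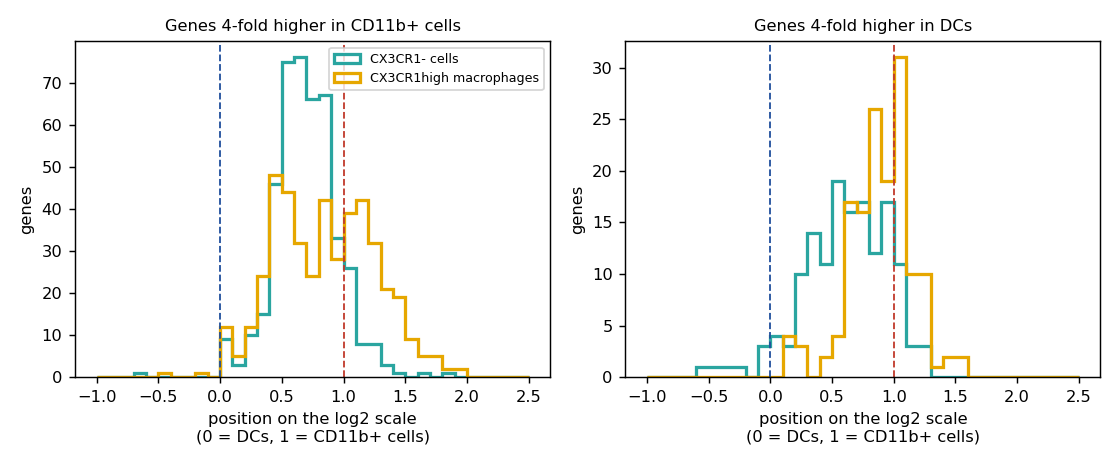
Position of the CX3CR1- cells and the CX3CR1high macrophages on the log scale from the DCs (0) to the CD11b+ cells (1), counted over the 449 genes higher and the 147 genes lower in the CD11b+ cells. Median positions of the CX3CR1- cells and the macrophages were 0.69 and 0.85 for the higher genes and 0.66 and 0.92 for the lower genes, which were chosen on the end points. Of the higher genes the CX3CR1- cells were within 2-fold of the CD11b+ cells for 263 and at least 2-fold above for 3, and the macrophages for 241 and 49.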

How the data were processed

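Total RNA of each sorted population was labelled with biotin and hybridised to 1 Affymetrix 3' array, per the labels' protocols. The deposited values, linear intensities with 1 signal for each probe set, are the output of MAS5 as the authors ran it (per the submitters' processing notes, which give no version). Signals were kept on that scale. Of 22690 probe sets 64 were controls, 691 named several genes and 1555 none, and these were left out. Genes were matched to the RefSeq gene table by Entrez number (99.8% found, 0 symbols changed). Each gene was read from 1 probe set, that of the highest mean over the arrays' log2 values, with sets ending in _x_at used last. A floor was set at the pooled median, 103. Genes over the array were called at 4-fold and list members at 2-fold. With 1 array per population nothing was tested, and arrays carry no counting error, so only their number can be given for the precision.

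Described genes are those of the gate, any member of 48 lists (856 genes, of which 126 had no single-gene probe set) and 8 families by symbol, and per direction the 12 largest measured ratios and 10 largest bounds, passing over genes with an opposite probe set and predicted names. Members and lists were chosen with earlier results of these data known. In 8 alternatives the floor was lowered to the 25th percentile of the pooled signals, raised to the 75th, dropped, or replaced by a pseudocount at the 25th; arrays were brought to equal medians or quantile-normalized; and probe sets were averaged within a gene or left out where their type can match several transcripts. The calling steps were tested on simulated data. Detection calls were not used here. Python 3.11.15, numpy 2.4.6, pandas 2.3.3 and matplotlib 3.10.9 were used.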

Additional observations from a re-analysis of the deposited data

How the results depend on the processing

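The counts of genes at least 4-fold apart, 449 higher and 147 lower in the CD11b+ cells, moved by more than 1.5 times with the floor. They were 760 and 248 with the floor at the pooled 25th percentile, 169 and 67 at the 75th, and 1468 and 734 with no floor, where the smallest signals enter. With equal medians the lower count was 227 against 353 higher. The 449 and 147 genes were all among those called with the lower floor and with no floor. That overlap was fixed in advance, because lowering the floor cannot shrink the ratio of a called gene, so it does not measure stability. Under the pseudocount, quantile normalization, the mean over probe sets and without shared probe set types both counts stayed within 1.5 times. Among named genes at least 2-fold apart the direction turned for Cox5b, whose log2 difference was -1.11, 0.10 as the mean over probe sets and 0.22 without shared types. Turns of genes within 2-fold were not counted. Of 56 lists and families 48 kept the sign of their median in each alternative that gave one (the mast cell and basophil list gave none without shared types). The other 8 were the gate genes, plasmacytoid DC, MHC class II, costimulation, integrins, C-type lectins, actin and glycolysis. The size of a median was less stable: 16 of the 56 medians moved by more than the spread between probe sets with the lower floor, 19 with the higher, 15 with none, 9 with the pseudocount, 10 with the mean over probe sets and 9 without shared types. Under both rescalings 0 moved. For equal medians this was set beforehand, because that rescaling shifts a log2 difference by at most 0.32, less than the spread of 0.46. Monocyte genes went from 2.53 to between 1.31 and 4.12, and shared conventional DC genes from -3.58 to -1.88 with the mean over probe sets. With the pseudocount, collagens went from 2.86 to 1.0, serpins from 1.30 to 0.14 and histone genes from -0.91 to -0.01.

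No paired analysis was possible because each population has 1 array, so none was left out as a replicate. Signals near the floor give bounds only, and differences between mice, sorts and hybridisations are not measured.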

Other observations

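Solute carrier genes, which move nutrients and metabolites across membranes, were higher in the CD11b+ cells in 31 of 128 cases with a ratio and lower in 9, with a median log2 difference of 0.35. Over all genes with a ratio, 17% passed as higher and 10.4% as lower. The family's split depended on the scaling. With equal medians 23 of 128 were higher and 13 lower (median 0.05), and with quantile normalization 26 and 11 (median 0.19). At the DC end lay Slc25a20, the carrier of acylcarnitines into mitochondria, at 10477 in the DCs and 1608 in the CD11b+ cells, 6.52-fold, and Slc46a3, a lysosomal transporter, at 917 and 144, 6.38-fold. Slc7a11, the cystine importer, was 3.23-fold higher in the CD11b+ cells. Of 8 histone genes 4 were lower in the CD11b+ cells and 0 higher, with a median of -0.91, and H2az1 read 8528 against 19406. That median depended on the floor and the probe sets. With the lower floor 2 of 14 were higher and 4 lower (median -0.14), and with the pseudocount 2 of 17 and 4 (median -0.01). Without shared probe set types 1 of 3 was lower (median -0.03). Of 8 S100 genes 3 were higher and 0 lower, with a median of 0.64.

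Smaller marker lists gave few ratios. Of 3 eosinophil genes 1, the arachidonic acid oxygenase Alox15, was higher in the CD11b+ cells and 0 lower (median 0.98). Of 2 mast cell and basophil genes 1 was higher (median 1.94), of 4 B and plasma cell genes 3 (median 1.65), and of 3 T, NK and innate lymphoid genes 0, with 0 lower (median 0.55).

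Several genes outside the lists stood far apart and were named after their values were seen. Ikbke, a kinase of interferon and NF-kB signalling, read 2619 in the CD11b+ cells and 51.7 in the DCs, at least 25.5-fold. Xdh, which makes uric acid, read 1921 against 85.7, at least 18.7-fold, and the receptor gene Notch1 3071 against 200, 15.4-fold. Apobec1, which edits RNA, was at least 14.1-fold higher in the CD11b+ cells. On the DC side, Fdps, an enzyme of the mevalonate pathway, read 1986 against 182, 10.9-fold, and the kinase gene Lrrk2 1172 against 111, 10.5-fold.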
